A study of Homo sapiens with 3 samples.

Results

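The WNT genes examined here are 59 protein-coding genes of the WNT pathway, chosen by name: every WNT ligand, frizzled receptor (FZD), secreted frizzled-related protein (SFRP) numbered 1 to 5 and Dickkopf (DKK) gene, with 22 further receptors, processing enzymes, inhibitors and transcription factors. All 59 had a row among the 60880 gene rows of the library, which include 19056 protein-coding genes. Values come from wild-type NCI-H1975 cells, RNA-seq replicate 2. NCI-H1975 is a human cell line established from a lung adenocarcinoma, grown in serum-containing medium, and the study set its wild-type cells against an anlotinib-resistant derivative and against resistant cells with TFAP2A knocked down. Anlotinib is an inhibitor of several receptor tyrosine kinases. The resistant cells, the knockdown cells and the 2 wild-type ATAC-seq samples were not analysed here, so the values describe 1 library without a replicate check and hold no comparison of cell states.

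WNT proteins are lipid-modified signals that act over short distances. They bind a frizzled receptor and, for the beta-catenin branch, the co-receptor LRP5 or LRP6, which halts a destruction complex that otherwise degrades beta-catenin. Beta-catenin then enters the nucleus and works with TCF/LEF factors. In the lung, WNT signals take part in airway and alveolar development and in the upkeep of alveolar stem cells, as shown in mice.

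The library held 25012733 counts. A gene was called detected with at least 10 counts, and levels are given in CPM, reads per 1000000 reads counted. Here 1 read was worth 0.0400 CPM, and a gene at 0 was given an upper limit of 0.120 CPM, the level of 3 counts. This limit is a fixed value that lies below the upper end of the 95% Poisson interval of a count of 0. Brackets hold 95% intervals (Poisson for levels, binomial for shares and ratios), which reflect counting error and nothing else. Transcript length is not taken into account in CPM, so every order of genes below is an order of read numbers, not of molecules. All 8 markers of lung adenocarcinoma epithelium were detected, among them NKX2-1 with 2926 counts. All 6 fibroblast markers were under 10 counts, with 8 counts in all. Of 5 endothelial markers CDH5 was detected with 340 and VWF with 10 counts. The fibroblast marker DCN and the endothelial markers TIE1 and CLDN5 were at 0.

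Few genes of the pathway had high read counts. The 59 genes held 31891 counts together, which is 1275 CPM (1261 to 1289) or 0.127% of the library. Of them 35 were detected, or 59.3%, against 69.7% of all protein-coding genes, and 16 were at 0, against a background of 21.2%. Above the upper quartile of detected protein-coding genes, at 66.1 CPM, stood 5 of the 59: LRP5, WNT9A, WNT7B, FZD2 and AXIN1. The same limit was passed by 17.4% of all protein-coding genes. The median over all 59 genes was 0.880 CPM, against 9.83 CPM over all protein-coding genes. Among detected genes the medians were 19.6 CPM for the 35 WNT pathway genes and 26.4 CPM for all protein-coding genes.

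Members whose products leave the cell were mostly under the minimum, and members whose products stay in or on it were mostly detected. Of 29 secreted members, the ligands and the secreted inhibitors, 9 were detected. Of the 30 others 26 were detected. The background of 69.7% lies between these shares of 31.0% and 86.7%. The median was 0.0400 CPM over the secreted members and 17.4 CPM over the others. This split was not among the planned results. Most secreted members entered as whole gene families, while the others, apart from the frizzled receptors, were listed gene by gene.

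**Figure D1:**
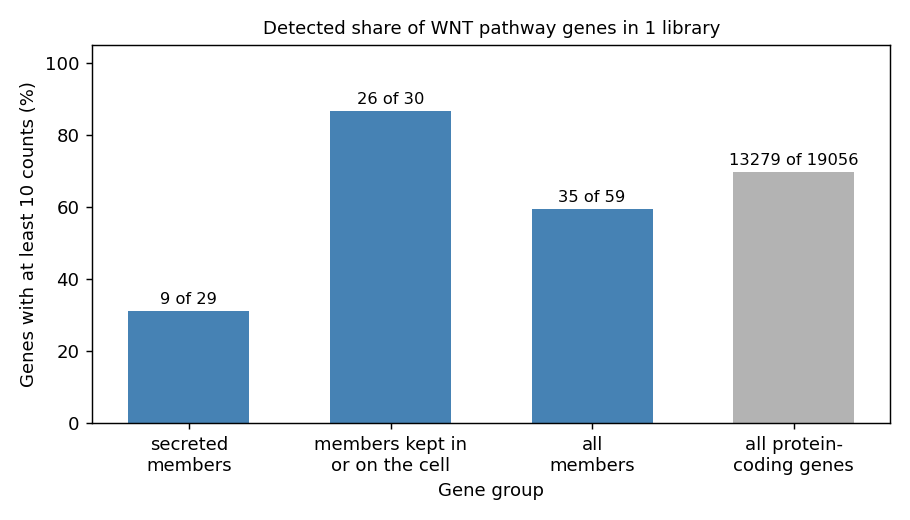
Share of genes with at least 10 counts (vertical axis, percent) for the secreted members, the members kept in or on the cell, all members and all protein-coding genes, with the numbers of genes above the bars. The secreted members stand at 31.0% and the others at 86.7%, on either side of the 69.7% of all protein-coding genes.

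Promoter sequences are shown for ligands that lie side by side in the genome, because the partners of such pairs differed in reads, and for DKK1, the one secreted inhibitor with many reads. They are 300-base windows of RefSeq (build GRCh38.p14), from 250 bases before to 50 bases after the annotated start, written 5′ to 3′ along the gene's strand. Of the 59 genes 41 matched an entry. In the first 4 windows capitals mark CpG dinucleotides, and in that of DKK1 they mark CTTTGA on either strand. CTTTGA is a form of the core motif that TCF/LEF factors bind, and other forms were not searched.
WNT9A, chr1:227947883-227948182, minus strand: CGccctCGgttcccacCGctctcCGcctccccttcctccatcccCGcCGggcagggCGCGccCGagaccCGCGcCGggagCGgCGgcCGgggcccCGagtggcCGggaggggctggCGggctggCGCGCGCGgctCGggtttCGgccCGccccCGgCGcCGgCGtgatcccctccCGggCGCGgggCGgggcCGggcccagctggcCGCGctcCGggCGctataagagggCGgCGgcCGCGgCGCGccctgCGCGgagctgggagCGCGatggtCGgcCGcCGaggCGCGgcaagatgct
WNT3A, chr1:228006748-228007047, plus strand: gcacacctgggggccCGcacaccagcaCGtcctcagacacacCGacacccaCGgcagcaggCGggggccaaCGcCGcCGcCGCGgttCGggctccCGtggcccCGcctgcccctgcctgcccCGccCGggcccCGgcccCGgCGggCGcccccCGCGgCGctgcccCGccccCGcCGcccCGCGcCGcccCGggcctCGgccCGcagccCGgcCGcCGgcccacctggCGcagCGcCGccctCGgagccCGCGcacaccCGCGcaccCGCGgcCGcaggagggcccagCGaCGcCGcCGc
WNT3, chr17:46818643-46818942, minus strand: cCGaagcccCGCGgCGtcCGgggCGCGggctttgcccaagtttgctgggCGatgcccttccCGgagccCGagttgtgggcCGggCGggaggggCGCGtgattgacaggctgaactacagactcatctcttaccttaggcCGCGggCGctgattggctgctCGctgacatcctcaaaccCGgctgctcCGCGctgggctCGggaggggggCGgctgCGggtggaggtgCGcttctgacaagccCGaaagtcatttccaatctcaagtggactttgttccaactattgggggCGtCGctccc
WNT9B, chr17:46851333-46851632, plus strand: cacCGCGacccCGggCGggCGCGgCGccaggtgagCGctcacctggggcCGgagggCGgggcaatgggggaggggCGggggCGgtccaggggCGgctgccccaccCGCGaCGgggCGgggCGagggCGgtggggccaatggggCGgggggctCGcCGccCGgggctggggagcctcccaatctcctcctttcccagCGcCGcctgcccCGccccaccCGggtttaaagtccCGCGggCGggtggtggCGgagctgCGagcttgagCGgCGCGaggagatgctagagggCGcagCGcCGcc
DKK1, chr10:52314031-52314330, plus strand: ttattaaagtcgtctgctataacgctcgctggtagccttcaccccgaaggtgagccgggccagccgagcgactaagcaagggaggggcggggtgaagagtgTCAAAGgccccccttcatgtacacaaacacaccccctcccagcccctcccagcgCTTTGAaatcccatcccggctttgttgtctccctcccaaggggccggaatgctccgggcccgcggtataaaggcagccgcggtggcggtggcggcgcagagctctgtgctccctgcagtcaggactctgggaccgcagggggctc

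Among the 19 ligands, WNT9A and WNT7B carried nearly all reads. WNT9A, which acts in joint formation in mice, had 3696 counts (ENSG00000143816.7_2), or 148 CPM (143 to 153), more than 90.5% of detected protein-coding genes. WNT7B, a signal of the embryonic airway epithelium in mice, had 3544 counts (ENSG00000188064.9_3), or 142 CPM (137 to 146). Their count ratio was 1.04 (0.996 to 1.09), so counting error alone does not separate them. WNT9A took 46.8% (45.7 to 47.9) of the 7896 ligand counts, WNT7B took 44.9% (43.8 to 46.0), and the 17 other ligands shared 8.31% (7.71 to 8.94).

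The next ligand, WNT3, an activator of the beta-catenin branch, had 469 counts, or 18.8 CPM (17.1 to 20.5). WNT7B had 7.56 times its counts (6.86 to 8.34). WNT10B had 88 counts, or 3.52 CPM (2.82 to 4.33), and its relative WNT10A, a gene of skin and tooth development, had 19, or 0.760 CPM (0.457 to 1.19). WNT2B had 42 counts, or 1.68 CPM (1.21 to 2.27), and its annotated span overlaps that of ST7L, which had 166, so its value is uncertain. WNT5A, the best-known ligand of beta-catenin-independent signalling, had 15 counts, with an interval of 0.336 to 0.989 CPM. These 7 were the detected ligands, 7 of 19 against the background of 69.7%.

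Below the minimum, WNT3A had 8 counts, WNT4 and WNT5B had 5 each, WNT7A and WNT8B had 2 each and WNT2 had 1. WNT1, WNT6, WNT8A, WNT9B, WNT11 and WNT16 were at 0, each with the fixed upper limit of 0.120 CPM. Some close relatives were unlike in reads: WNT7B had 3544 counts and WNT7A 2, and WNT9A had 3696 and WNT9B 0. WNT3A, with 8 counts, and WNT5A, with 15, stood just outside and just inside the minimum, and their intervals overlapped.

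**Figure D2:**
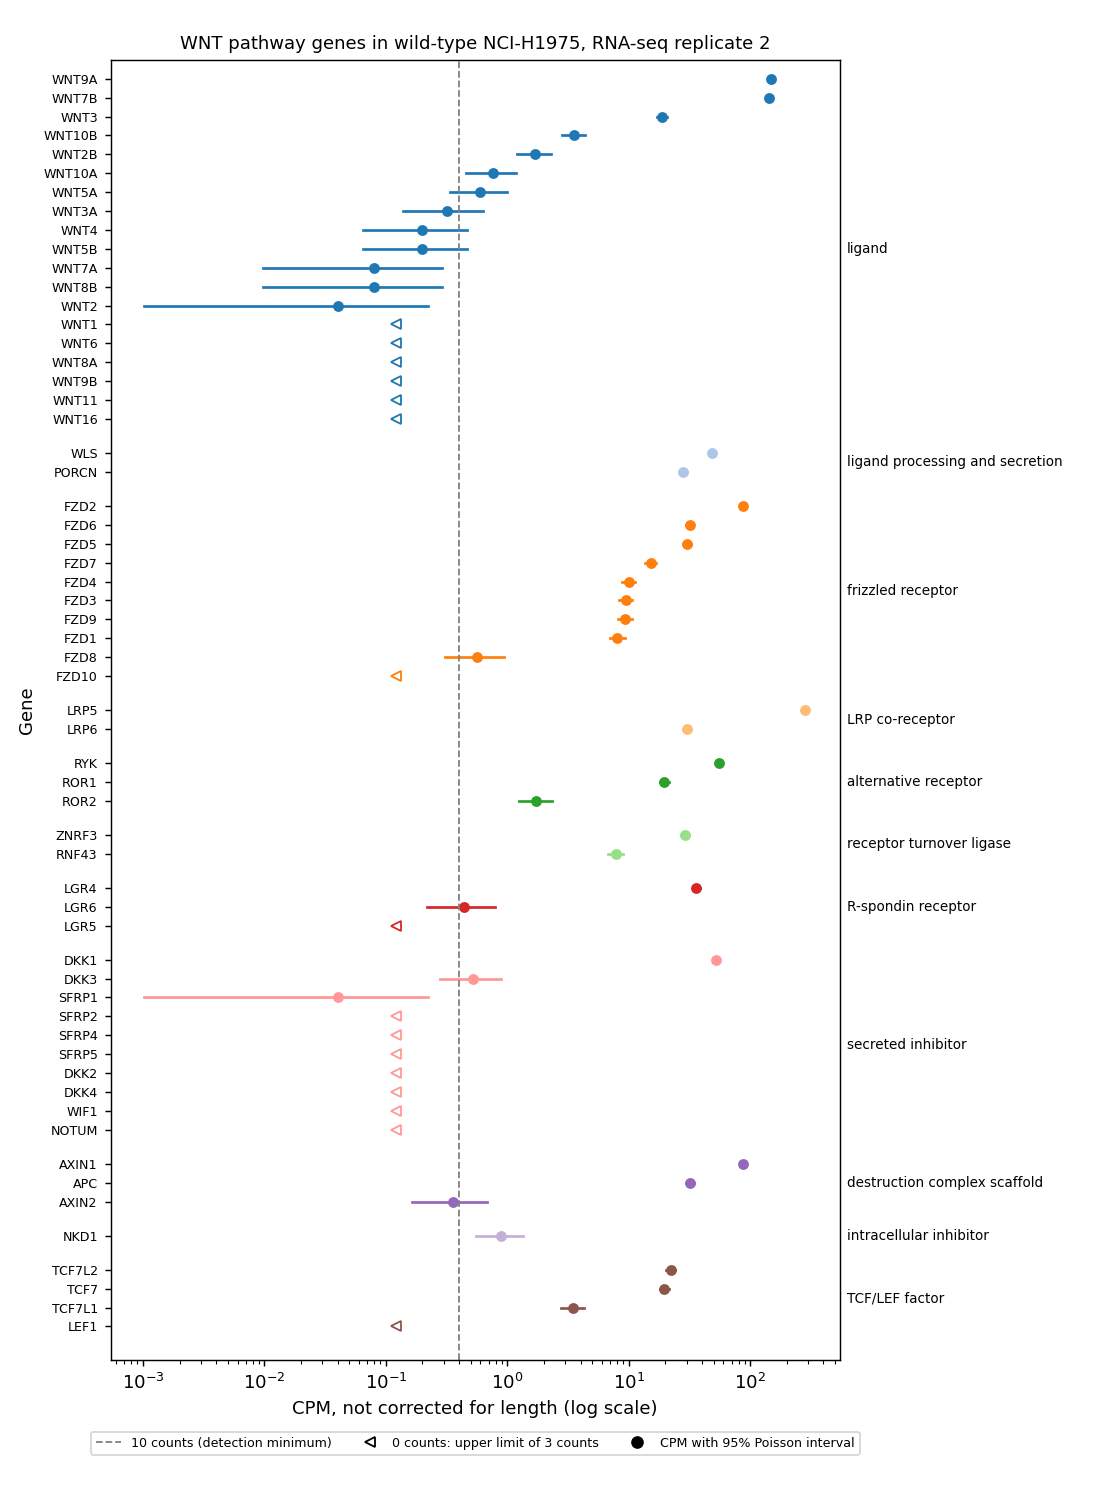
Level of each of the 59 genes in CPM (horizontal log axis, not corrected for length), grouped by role, with 95% Poisson intervals as lines. Open triangles mark genes at 0 counts at their upper limit of 0.120 CPM, and the dashed line is the detection minimum of 10 counts; WNT9A and WNT7B stand apart from the other ligands and LRP5 is the highest gene.

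In 4 pairs of WNT genes no other named protein-coding gene starts between the annotated starts of the partners (RefSeq, GRCh38.p14), and in each pair 1 partner was detected and 1 was not. On chromosome 1, WNT9A had 3696 counts and WNT3A had 8, a ratio of 462 (234 to 1071). On chromosome 17, WNT3 had 469 counts and WNT9B had 0, which is 156-fold against a floor of 3 counts for a gene at 0. Ratios against this floor leave out the counting error of the higher gene and have no interval. The annotated span of LRRC37A2, which had 89 counts, overlaps both of these genes. On chromosome 12, WNT10B had 88 counts and WNT1 had 0, which is 29.3-fold against the same floor. On chromosome 2, WNT10A had 19 counts and WNT6 had 0, which is 6.33-fold against the same floor. The annotated spans of WNT10A and WNT6 overlap each other, so their separate values are uncertain. The pairs were looked for after the counts were seen, and gene length is not corrected for in these ratios. Among all 19 ligands 7 were detected, against 69.7% of all protein-coding genes. How often other neighbouring genes differ in this way was not tested.

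**Figure D3:**
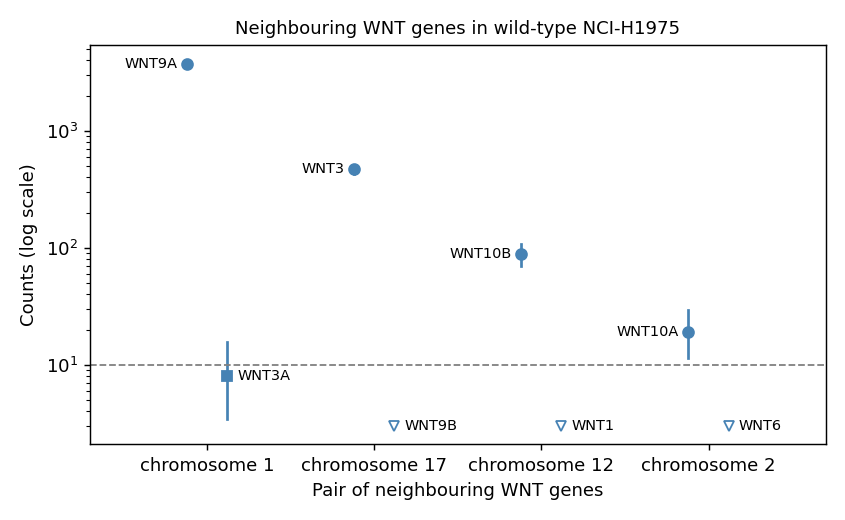
Counts (vertical log axis) of neighbouring WNT genes in 4 pairs, 1 pair per chromosome, with 95% Poisson intervals as lines and open triangles at 3 counts for genes at 0. In each pair one gene lies above the dashed line at 10 counts and its neighbour below it.

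CpG content was high in the promoters of both partners in the 3 pairs with a window for each, which leaves out WNT10B and WNT1. The WNT9A window held 53 CpG, with an observed over expected CpG ratio of 1.03 and 83.0% GC, and that of WNT3A held 49 CpG, a ratio of 0.934 and 86.0% GC. The WNT3 window held 28 CpG with a ratio of 0.871, and that of WNT9B held 38 with a ratio of 0.818. WNT10A and WNT6 had ratios of 0.685 and 0.864. All 6 windows had ratios of at least 0.6. WNT1 had a ratio of 0.766.

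Over the 41 genes with a window, CpG-rich promoters were also common among genes that were not detected. A ratio of at least 0.6 was found in 23 of 25 detected members and in 11 of 16 members that were not detected. Among all protein-coding genes the shares were 85.9% of 10836 detected genes and 35.2% of 4402 genes not detected. WNT2, with 1 count, had the highest ratio of the 16 not detected, 1.12, while RNF43, with 195 counts, had the lowest of the 25 detected, 0.250. Where RefSeq lists several starts the one with the highest ratio was used, and with the first listed start the members' counts were 22 of 25 and 11 of 16. Whether the DNA at these sites was methylated or open was not measured in the file used here.

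**Figure D4:**
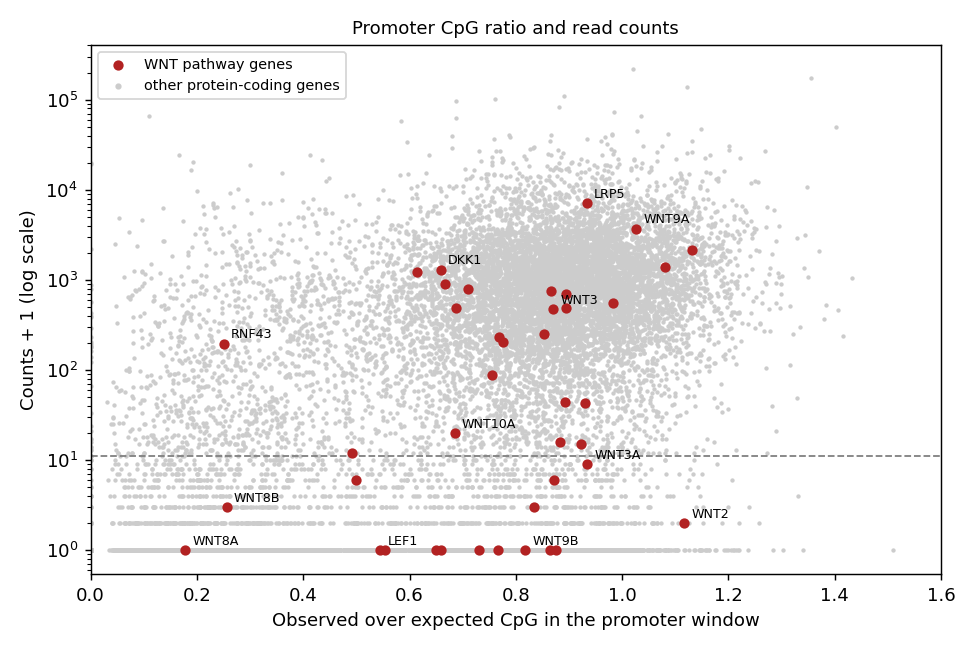
Observed over expected CpG ratio of the promoter window (horizontal axis) against counts plus 1 (vertical log axis) for 41 WNT pathway genes (red) and other protein-coding genes (grey), with the detection minimum as a dashed line. Several genes at or near 0 counts, WNT2 and WNT9B among them, have ratios as high as genes with many reads.

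The palindrome GCCNNNGGC, a core that AP-2 factors such as TFAP2A bind, was found in the windows of 22 of the 41 genes, WNT9A, WNT3A, WNT3, WNT9B and LRP5 among them. It was found in 33.9% of protein-coding genes with a window and in 23.2% of all 35116 windows. Members with and without reads carried it, and members' windows were GC-rich. Median GC was 69.7% over detected members and 66.3% over all detected protein-coding genes. Among genes not detected it was 71.2% over members and 55.3% over all protein-coding genes. A match of letters does not show that a factor binds there.

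The machinery that makes and exports WNT proteins was read. PORCN, the acyltransferase that attaches the lipid to WNT proteins, had 703 counts, or 28.1 CPM (26.1 to 30.3). WLS, the carrier that takes them to the cell surface, had 1212 counts, or 48.5 CPM (45.8 to 51.3). The count ratio of WLS to PORCN was 1.72 (1.57 to 1.89).

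Of the 10 frizzled receptors, 9 were detected, against the background of 69.7%, with FZD2 leading. FZD2 had 2196 counts (ENSG00000180340.6_2), or 87.8 CPM (84.2 to 91.5), which was 43.5% (42.1 to 44.9) of the family's 5049 counts and 2.77 times (2.55 to 3.01) the counts of the next gene. FZD6 and FZD5 followed with 793 and 750 counts, or 31.7 CPM (29.5 to 34.0) and 30.0 CPM (27.9 to 32.2), and their ratio of 1.06 (0.956 to 1.17) includes 1. FZD6 is best known for planar cell polarity, in mice, and FZD5 for the beta-catenin branch in the gut epithelium, also in mice.

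FZD7 had 379 counts, or 15.2 CPM (13.7 to 16.8). FZD4, which also binds the non-WNT ligand Norrin, had 249, FZD3 had 235, FZD9 had 232 and FZD1 had 201 counts, between 8.04 and 9.95 CPM. The intervals of these 4 genes overlapped. FZD8 had 14 counts, or 0.560 CPM (0.306 to 0.939), and FZD10 was at 0. Unlike the ligands, frizzled reads were spread over several genes. The annotated span of FZD4 overlaps that of PRSS23, which had 10485 counts, so the FZD4 value is uncertain.

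LRP5 was the highest of all 59 genes and LRP6 was far below it in reads. LRP5 had 7109 counts (ENSG00000162337.11_2), or 284 CPM (278 to 291), more than 96.1% of detected protein-coding genes. LRP6 had 751 counts, or 30.0 CPM (27.9 to 32.3), and the count ratio of LRP5 to LRP6 was 9.47 (8.78 to 10.2). LRP5L, a partial copy of LRP5, had 225 counts in a row of its own, and the sources used here do not say how reads shared by the copies were counted.

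The 3 WNT receptors RYK, ROR1 and ROR2, which lie outside the frizzled family, were all detected, against 69.7% of all protein-coding genes. RYK, a WNT receptor with an inactive kinase domain, had 1381 counts, or 55.2 CPM (52.3 to 58.2). ROR1 and ROR2 are receptor kinases that bind WNT5A. ROR1 had 491 counts, or 19.6 CPM (17.9 to 21.4), and ROR2 had 43, or 1.72 CPM (1.24 to 2.32), a count ratio of 11.4 (8.35 to 16.0). RYK had 2.81 times (2.54 to 3.12) the counts of ROR1.

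**Figure D5:**
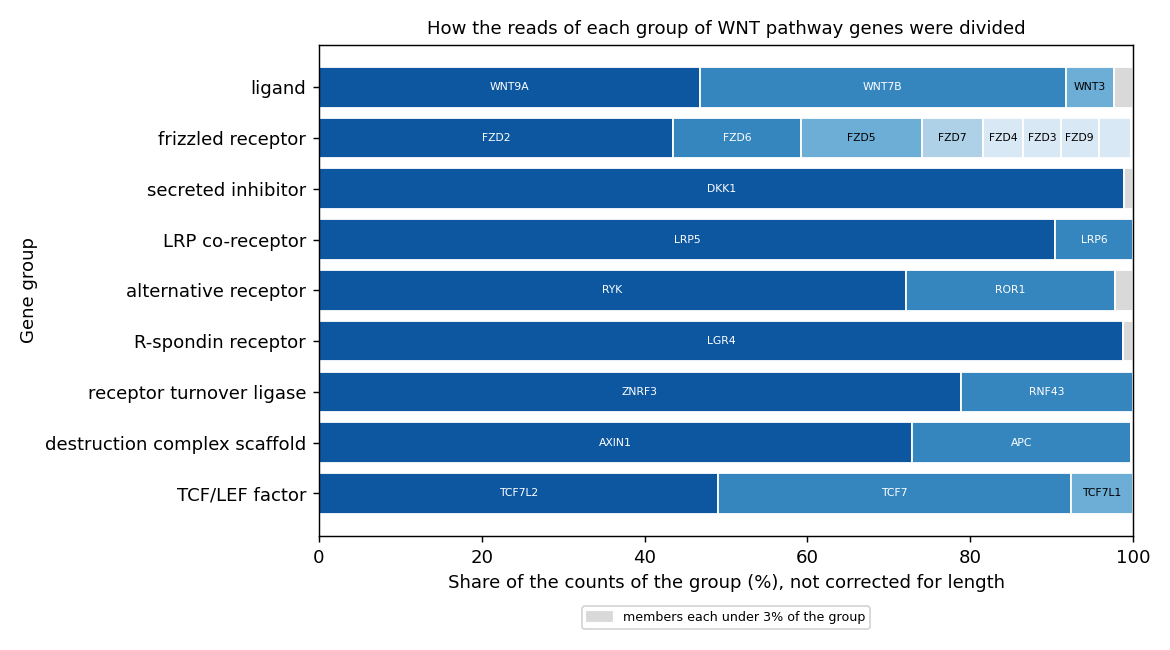
Division of the counts of 9 groups of WNT pathway genes among their members (horizontal axis, percent of the group's counts, not corrected for length), with members under 3% pooled in grey. WNT9A and WNT7B fill most of the ligand bar, and DKK1, LGR4 and LRP5 each hold at least 90.4% of theirs, while the frizzled bar is divided among more genes.

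The ligases of receptor turnover were detected, and the R-spondins that act on them were not. Of all protein-coding genes 69.7% were detected. RNF43 and ZNRF3 are membrane ubiquitin ligases that remove frizzled receptors from the surface. RNF43 had 195 counts, or 7.80 CPM (6.74 to 8.97), and ZNRF3 had 727, or 29.1 CPM (27.0 to 31.3), a count ratio of 0.268 (0.228 to 0.315). R-spondins switch these ligases off through the receptors LGR4, LGR5 and LGR6. LGR4 had 898 counts, or 35.9 CPM (33.6 to 38.3), and LGR6 had 11, or 0.440 CPM (0.220 to 0.787). LGR5, a stem cell marker of the gut, was at 0, and LGR4 had 299 times a floor of 3 counts, a ratio without an interval. The R-spondins themselves were all under the minimum, with 0 counts for RSPO1, 2 for RSPO2, 6 for RSPO3 and 3 for RSPO4.

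The secreted inhibitors came down to DKK1. DKK1, which blocks WNT signals by binding LRP5 and LRP6, had 1295 counts (ENSG00000107984.9_2), or 51.8 CPM (49.0 to 54.7), which was 98.9% (98.2 to 99.4) of the counts of the 10 secreted inhibitors. DKK3, a divergent family member, had 13 counts, or 0.520 CPM (0.277 to 0.889), and DKK1 had 99.6 times as many (58.0 to 188). SFRP1, a decoy receptor for WNT proteins, had 1 count. SFRP2, SFRP4, SFRP5, DKK2, DKK4, the WNT-binding WIF1 and NOTUM, the enzyme that strips the lipid from WNT proteins, were all at 0. FRZB, the SFRP gene outside the naming rule, had 1 count.

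The DKK1 window printed above held CTTTGA 2 times, counting both strands, the first match starting 149 bases before the annotated start. The motif occurred in the windows of 2 of the 41 genes, DKK1 and PORCN, and in 14.1% of protein-coding genes with a window. AXIN2, LGR5, NKD1, NOTUM and ZNRF3 were among the genes without a window, so they were not searched. No match in a window says only that these letters are not in its 300 bases.

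Inside the cell, AXIN1 and AXIN2 were far apart. AXIN1, the scaffold of the destruction complex, had 2158 counts (ENSG00000103126.14_2), or 86.3 CPM (82.7 to 90.0). AXIN2, its relative that beta-catenin signalling switches on, had 9 counts, or 0.360 CPM (0.165 to 0.683), just under the minimum. The count ratio was 240 (126 to 525). APC, the tumour suppressor that works with them, had 795 counts, or 31.8 CPM (29.6 to 34.1), and AXIN1 had 2.71 times its counts (2.50 to 2.95). NKD1, which binds Dishevelled and dampens the signal, had 22 counts, or 0.880 CPM (0.551 to 1.33).

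Of the TCF/LEF factors, TCF7L2 had slightly more counts than TCF7, and LEF1 was not detected. TCF7L2 had 555 counts, or 22.2 CPM (20.4 to 24.1), and TCF7 had 490, or 19.6 CPM (17.9 to 21.4). Their ratio was 1.13 (1.001 to 1.28), with a lower end just above 1. TCF7L1, which acts mainly as a repressor, had 87 counts, or 3.48 CPM (2.79 to 4.29), and TCF7L2 had 6.38 times its counts (5.08 to 8.09). LEF1 was at 0, as was its antisense gene LEF1-AS1. TCF7 overlaps the annotated span of VDAC1, which had 4331 counts, so its value is uncertain.

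Members widely used as direct targets or feedback genes of beta-catenin signalling lay on both sides of the minimum of 10 counts. This set of 9 was chosen with the counts known. DKK1, ZNRF3, TCF7, RNF43 and NKD1 were detected, with 1295, 727, 490, 195 and 22 counts. AXIN2 had 9 counts, with an interval that overlaps that of NKD1, and LGR5, NOTUM and LEF1 were at 0. Thus 5 of 9 were detected, against the background of 69.7%.

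Other genes of the pathway were read from 5 lists. All 18 core cytoplasmic components were detected, against 69.7% of all protein-coding genes, and their median was 79.0 CPM, against 9.83 CPM over those genes. CTNNB1, which encodes beta-catenin, led with 10058 counts, or 402 CPM (394 to 410), followed by the casein kinase gene CSNK1G2 with 6194 and the Dishevelled gene DVL1 with 5141. All 14 nuclear cofactors passed the minimum too, against the same 69.7%, and their median was 85.4 CPM. The beta-catenin co-activator BCL9L had 8676 counts, the co-repressor family member TLE5 had 7934 and the acetyltransferase EP300 had 4198.

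Of 24 R-spondins and other mostly extracellular or membrane regulators 11 were detected, against 69.7% of all protein-coding genes. The detected ones were led by TMEM59 with 1175 counts, the secreted collagen-associated CTHRC1 with 1044 and the glypican GPC4 with 578. KREMEN1, a receptor for DKK1, had 442 counts. RECK and ADGRA2, which form a co-receptor for WNT7 ligands on brain endothelium in mice, had 95 and 75 counts. KREMEN1, RECK and ADGRA2 were named after their counts were seen. The Norrin gene NDP had 2 counts.

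Of 12 planar cell polarity genes 11 passed the minimum, against 69.7% of all protein-coding genes, and the median over the 12 was 35.8 CPM, against 9.83 CPM. The atypical cadherins CELSR1 and CELSR3 had 9688 and 3418 counts, the scaffold SCRIB had 4294 and DAAM2 was at 0. Of 16 further genes widely used as beta-catenin targets 12 were detected, a share near the background of 69.7%. CD44, MYC and JUN led with 11793, 9634 and 5801 counts, and many other pathways also control them. EPHB2 had 2199 counts, SOX9 had 1985, EPHB3 had 728, BAMBI had 158 and TNFRSF19 had 78. SP5 had 10 counts, exactly the minimum, and so is among the 12 detected. EPHB2, SOX9, EPHB3, BAMBI, TNFRSF19 and SP5 were named with their counts known. ASCL2, PROX1 and ZCCHC12 had 0, 0 and 4 counts.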

How the data were processed

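Raw read counts per gene were deposited by the authors for 1 wild-type RNA-seq library of NCI-H1975 cells, as whole numbers that were not normalised. Per the labels' protocols, 1 ug of total RNA went into a directional NEBNext library. Build hg19 and the tools featureCounts and STAR appear in the submitters' processing notes, without roles. Strand setting, annotation release and the handling of reads shared by genes, not given in the sources used here, could change single values.

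Ensembl identifiers were matched without version to current symbols (56373 of 60880 rows, with 99.8% of counts). The 41 rows of pseudoautosomal Y copies received no symbol. RefSeq (GRCh38.p14) gave gene types, neighbours, overlaps and promoter windows. Of the 35 detected members, 24 overlap another annotated gene, 7 overlap one with at least 10 counts and 3 one with at least their own count. These 3 are FZD4, TCF7 and WNT2B, which overlaps ST7L (166 counts). Such values cannot be told apart where strand was not used.

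CPM were computed over all counts, with exact (Garwood) Poisson intervals, exact (Clopper-Pearson) binomial intervals for shares and conditional intervals for ratios, all at 95%. The reads carry no molecular identifiers that the sources name and need not be independent molecules, so intervals cover counting error alone. Levels per coding kilobase had been planned. No transcript lengths were used, so ratios are of counts, and the 3 genes named per list are those with the highest counts, with up to 3 under 10 counts. Leukocyte markers are not reported here. The members and lists were chosen with earlier results of these data known. Ratios other than the 8 planned between paralogues or paired functions were added after the counts were seen. The planned WNT9A to WNT7B ratio joins the ligands with the most counts, so it may not have been chosen apart from the counts. Intervals were computed with SciPy 1.17.1 and tables with pandas 2.3.3 in Python 3.11.15; figures were drawn in Matplotlib 3.10.9.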

Additional observations from a re-analysis of the deposited data

How the results depend on the processing

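The number of detected members was 35, and 43 at a minimum of 1 count, 27 at 50 counts, 29 at 1 CPM and 31 with counts thinned to 50%. Detected ligands were 7, but 13 at a minimum of 1 count and 4 at 50 counts. Detected frizzled receptors were 9, or 8 at 50 counts, at 1 CPM and after thinning. The median of detected members was 19.6 CPM, and 9.40 CPM when members with at least 1 count entered. After thinning, the WNT9A share of ligand counts and 7 of 8 planned ratios stayed inside their intervals. Thinning keeps shares and ratios the same on average, so this could show only the scatter that lower depth brings. The ratio of LGR4 to the floor used for LGR5 has no interval and became 140-fold, because thinning lowers the LGR4 count while the floor stays at 3 counts. A library total without mitochondrial genes makes each CPM 1.06 times as large, and one without the 10 most-read genes 1.08 times. Without mitochondrial genes, summed CPM became 334 for ligands, 80.9 for processing and secretion, 213 for frizzled receptors, 332 for LRP co-receptors, 80.9 for the ROR and RYK receptors, 55.3 for secreted inhibitors and 125 for AXIN and APC genes. Without the 10 genes these sums were 340, 82.4, 217, 338, 82.4, 56.3 and 127 CPM, with 39.7 for RNF43 and ZNRF3, 39.1 for the LGR genes and 48.7 for TCF/LEF factors. The sums with all counts were 316, 76.6, 202, 314, 76.6, 52.3 and 118 CPM, with 36.9, 36.3 and 45.3 CPM for the last 3 groups. Ratios and shares per kilobase were not run for lack of lengths. No paired analysis was possible because the data come from 1 library. With 1 library no spread between cultures is known, and members under 10 counts are set by depth.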
